A study of Homo sapiens with 18 samples.

Results

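Discoidin domain receptors, collagen-cleaving matrix metalloproteinases (MMPs) and their tissue inhibitors were followed as a set of 10 named genes in U2OS, an established human osteosarcoma line. The set held the receptors DDR1 and DDR2, the proteases MMP1, MMP2, MMP3, MMP9, MMP13 and MMP14, and the inhibitors TIMP2 and TIMP3. These were 10 of the 25296 genes of the deposited count table, and 9 of them were abundant enough to be tested, among 18226 tested genes in all. DDR2 and MMP13 were chosen by a measured value, the difference in log2 response to cytarabine between the mutant and the empty vector line, so every value that uses that contrast is given for them as a description without a test. The other 8 genes were added as parts of the same pathway, with earlier results of these data known.

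The study addressed the cytarabine response of U2OS lines with introduced DNMT3A. DNMT3A is an enzyme that methylates DNA, and cytarabine is a nucleoside drug that is built into DNA and stalls replication. There were 3 derived lines, one with the empty retroviral vector MigR1 (EV), one with wild-type DNMT3A (WT) and one with mutant DNMT3A (MUT), which the series title names R882C and the sample labels R882H. Each line was sampled without treatment, called vehicle in the series text, and after 24 h with 10 µM cytarabine, giving 6 groups of 3 biological replicates and 18 RNA libraries in all. The sources used here do not say whether a line is 1 clone or a pool, so an effect of the introduced gene and other differences between the derived lines cannot be told apart.

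Discoidin domain receptors are receptor tyrosine kinases that bind collagen itself, DDR1 mainly in epithelial cells and DDR2 mainly in mesenchymal cells such as fibroblasts and bone-forming cells. DDR2 that is engaged by fibrillar collagen is known to raise MMP13 in cartilage and bone. Among the proteases, MMP1 and MMP13 are collagenases that cut the intact collagen triple helix, MMP2 and MMP9 are gelatinases that digest the unwound fragments, MMP3 is a stromelysin that also activates other proenzymes, and MMP14 is a membrane-bound collagenase. TIMP2 inhibits MMPs and also serves with MMP14 as the docking complex on which proMMP2 is activated, while TIMP3 is an inhibitor that binds to the extracellular matrix.

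Library totals ran from 15.4 to 21.9 M estimated counts. DNMT3A itself was measured at 26.9 ± 0.662 CPM (counts per M counts of the TMM-scaled library, SD, n = 3) in untreated EV, 133 ± 5.17 CPM in untreated WT and 456 ± 185 CPM in untreated MUT, where the libraries ranged from 254 to 615 CPM. The EV level is that of U2OS's own gene, and in WT and MUT endogenous and introduced transcripts share 1 value. Untreated MUT was also the group whose replicates differed most over all genes, with a biological coefficient of variation of 0.216 against 0.0398 to 0.133 in the other groups. Of 10 osteoblast and mesenchymal markers, SPARC (805 to 1170 CPM), VIM, COL1A1 and RUNX2 (29.6 to 53.2 CPM) were clearly present in every library. ALPL held 6.27 to 15 CPM, COL1A2 (0.292 to 8.11 CPM) and SPP1 (0.375 to 1.35 CPM) were low, the late osteoblast marker BGLAP reached at most 0.437 CPM and SP7 and IBSP were not analysed here. The summed markers of blood, epithelial and endothelial cells stayed between 2.17 and 13.6 CPM per library. The blood and endothelial sums were higher in every treated than in every untreated library of the same line (for blood 3.15 to 4.61 against 7.36 to 9.93 CPM in EV, 4.41 to 4.97 against 9.28 to 10.3 CPM in WT, and 3.20 to 4.97 against 10.9 to 12.2 CPM in MUT), as was the epithelial sum. Among the blood markers CD34 reached 8.66, CD68 3.48 and PTPRC 1.41 CPM, while SPI1 ran from 0 to 0.428 CPM. The endothelial markers CDH5, VWF and TEK reached 6.37, 4.17 and 2.38 CPM, and PECAM1 ran from 0 to 0.418 CPM. The epithelial markers CDH1, KRT5, EPCAM, KRT14 and KRT19 reached 5.18, 5.01, 4.01, 2 and 1.32 CPM. The summed osteoblast and mesenchymal markers moved the other way, from 3120 to 3240 CPM in untreated to 2260 to 2350 CPM in treated EV libraries, from 3360 to 3370 to 2280 to 2360 CPM in WT, and from 3330 to 3910 to 2410 to 2710 CPM in MUT, without overlap in any line. VIM (967 to 2600 CPM) and SPARC made up most of this sum, which therefore does not give the direction of each marker. Averaged over the lines, COL1A1 rose with cytarabine by 0.42 on the log2 scale (edgeR, adjusted p 2.9e-06), but in WT alone the value was 0.1 (adjusted p 0.46). COL1A2, low as it was, rose by 2.04 (adjusted p 3.6e-09). RUNX2 rose by 0.47 in MUT (adjusted p 0.00099), with smaller values in EV (0.12) and WT (0.13). The part of these marker lists in the results on MMPs and receptors was not tested. In bulk RNA, fewer cells that express a gene and less RNA per cell cannot be told apart.

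The members spanned a wide range of levels. Per kilobase of annotated exon, untreated EV cells held most TIMP2 (43.2 ± 1.23 CPM per kb, SD, n = 3), followed by MMP2 (27.2 ± 0.568), MMP14 (17.8 ± 0.968), TIMP3 (9.22 ± 1.25) and MMP9 (7.39 ± 0.316). DDR1 (5.56 ± 0.529 CPM per kb), MMP3 (3.11 ± 0.156) and DDR2 (2.55 ± 0.303) lay below these, and MMP13 (1.3 ± 0.295) was the lowest of the tested members. The membrane collagenase, 1 gelatinase and TIMP2 were thus the abundant members, and the secreted collagenases the rare ones. Among all tested genes, ranked by mean log2 CPM without regard to length, TIMP2 stood above 97.7% and MMP13 above 28.9%.

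**Figure D1:**
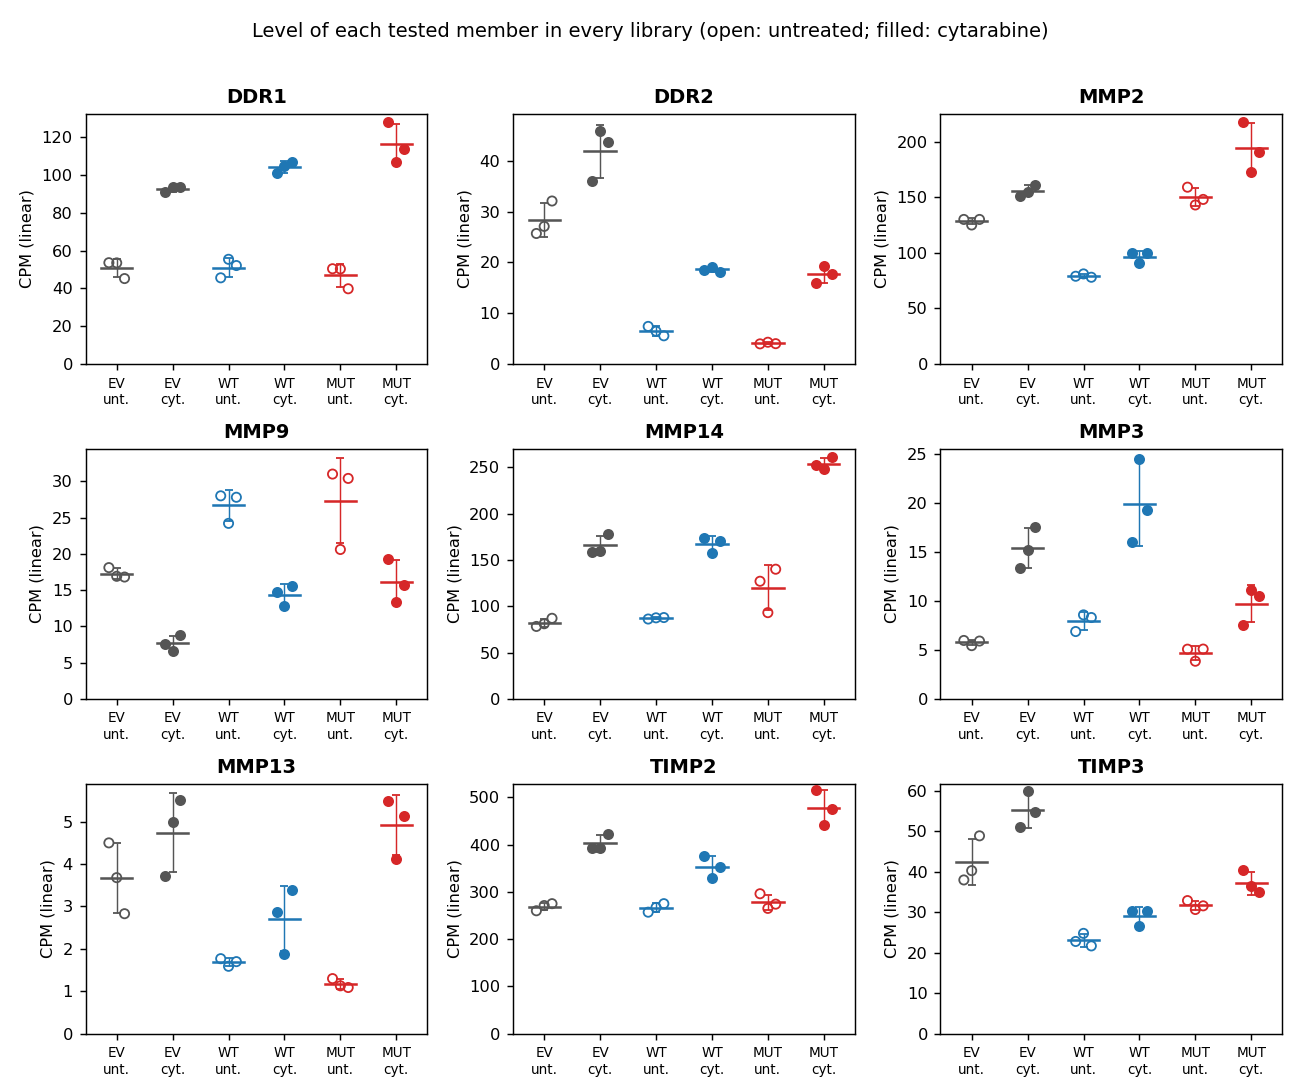
Each panel plots CPM (linear axis from 0) of 1 tested gene in the 18 libraries, with open circles for untreated and filled circles for cytarabine-treated libraries, and bars for the mean ± SD of 3. DDR2 and MMP13 lie lower in untreated WT and MUT than in untreated EV, and MMP9 is the gene whose treated libraries lie below the untreated ones in each line.

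Interstitial collagenase MMP1 was close to absent. It had 46 counts in all 18 libraries together, 8 at most in 1 library and none in 2 libraries, and only 5 libraries held more than 3 counts. A count of 3 corresponded to between 0.128 and 0.189 CPM. MMP1 was therefore not tested, and its level in any group was not distinguishable from the detection floor. MMP13 was thus the secreted collagenase of this set that could be followed.

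With cytarabine, 8 of the 9 tested genes rose and MMP9 fell. Averaged over the lines, all 9 passed the threshold (adjusted p under 0.05), where 69.0% of all tested genes did, 37.3% upward and 31.7% downward. For DDR2 and MMP13 this average also uses the EV and MUT libraries of the choice, so their calls need not be independent of it. In EV, 6 of the 7 members tested there rose and 1 fell, against 49.1% of all genes called in either direction, 26.1% upward and 22.9% downward. In MUT the split was again 6 and 1 of 7, against 56.3% of all genes, 30.4% upward and 25.9% downward. In WT, whose libraries had no part in choosing DDR2 and MMP13, 8 of 9 rose and 1 fell, against 49.0% of all genes, 26.3% upward and 22.7% downward. In each line the share of members called was above that of all genes, and the set as such was not tested. The members were chosen with earlier results of these data known, so this comparison is a description. Levels were not matched, as TIMP2, MMP14 and MMP2 stood above 97.7%, 91.2% and 90.5% of tested genes and MMP13 above 28.9%. The median log2 fold change was 0.58 in EV, 0.69 in WT and 0.78 in MUT over the members tested there, beside medians of 0.051, 0.026 and 0.054 over all tested genes.

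**Figure D2:**
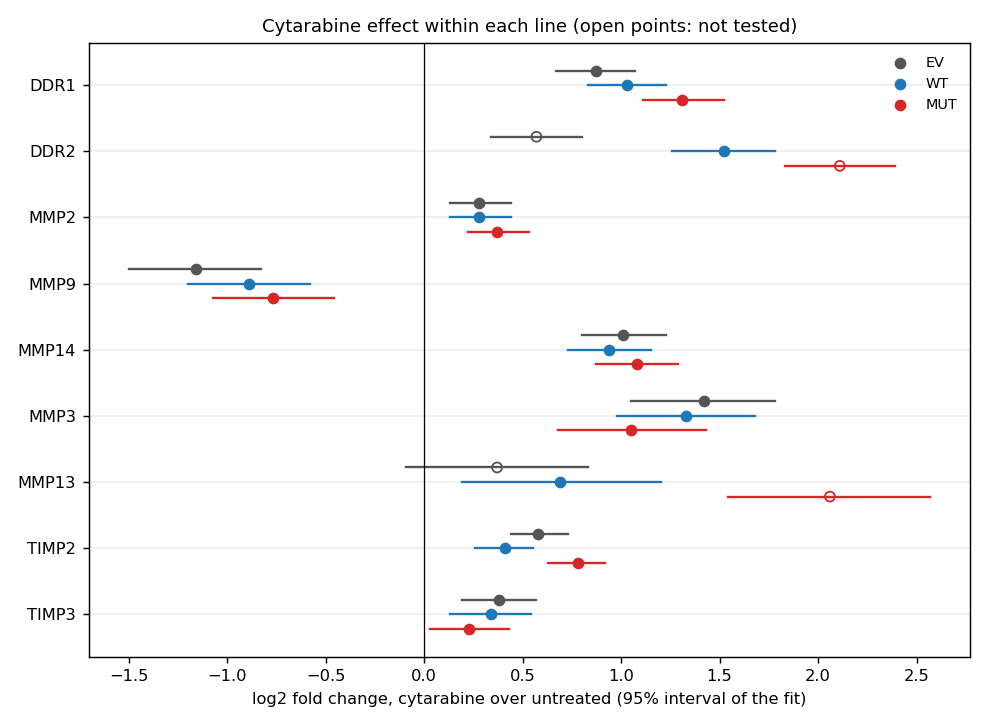
The horizontal axis gives the log2 fold change of cytarabine over untreated cells within each line, with the 95% interval of the edgeR fit; open points are the untested values of DDR2 and MMP13 in EV and MUT. MMP9 is the gene left of 0 in all 3 lines, and the points of DDR2 and MMP13 spread widest between lines.

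DDR1 (chromosome 6, 30876421 to 30900157, plus strand, hg38) approximately doubled. Untreated libraries held 53.6, 53.5 and 45.2 CPM in EV, 45.6, 55.4 and 52.1 CPM in WT, and 50.4, 50.3 and 39.8 CPM in MUT, so the 3 lines overlapped at the start. After cytarabine the values were 91.0, 93.8 and 93.5 CPM in EV, 101, 105 and 107 CPM in WT, and 128, 107 and 114 CPM in MUT. Treated and untreated libraries did not overlap in any line. Of all tested genes, 58.7% in EV, 65.3% in WT and 56.6% in MUT did not overlap either. These shares stand beside each such statement on treatment below. DDR1 rose on the log2 scale by 0.87 (SE 0.0960, adjusted p 4.8e-07) in EV, 1.03 (SE 0.0955, adjusted p 4.8e-08) in WT and 1.31 (SE 0.0962, adjusted p 1.7e-09) in MUT. It was the member for which no line difference, averaged over treatments, passed the threshold, with 95% intervals of -0.04 to 0.25 for MUT over EV, -0.05 to 0.23 for WT over EV and -0.12 to 0.16 for MUT over WT. Without untreated MUT replicate 3, MUT over EV passed, at 0.16 (adjusted p 0.0402).

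DDR2 (chromosome 1, 162631373 to 162787401, plus strand, hg38) differed between the lines already before treatment, unlike DDR1, for which the untreated lines overlapped. Untreated EV libraries held 25.7, 27.1 and 32.1 CPM, untreated WT libraries 7.40, 6.45 and 5.55 CPM, and untreated MUT libraries 3.96, 4.28 and 4 CPM. The 3 untreated groups did not overlap, with EV highest and MUT lowest. Untreated EV and MUT entered the choice of the gene, so this order is a description. Of all tested genes, 30.4% did not overlap between untreated EV and MUT, 40.3% between EV and WT and 31.9% between WT and MUT. Between the treated groups the same shares were 33.6%, 37.1% and 45.5%. After cytarabine DDR2 stood at 36.0, 45.9 and 43.8 CPM in EV, 18.6, 19.1 and 18.2 CPM in WT, and 15.9, 19.3 and 17.8 CPM in MUT. From lowest to highest the order was untreated MUT, untreated WT, treated MUT, treated WT, untreated EV and treated EV, and of these neighbours only treated MUT and treated WT overlapped.

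The average over both treatments and that over the lines have coefficients orthogonal to those of the contrast that chose the gene. Both averages use libraries of that contrast, whose groups differ in spread. Values of either average, also those of MMP13, therefore need not be independent of the choice. Averaged over both treatments, DDR2 was lower in MUT than in EV on the log2 scale by -2.02 (SE 0.0867, adjusted p 8.3e-12). It was lower in WT than in EV by -1.65 (SE 0.0833, adjusted p 3.0e-11), and lower in MUT than in WT by -0.38 (SE 0.0919, adjusted p 0.0039). The treatment effect in WT was a rise of 1.52 (SE 0.124, adjusted p 1.1e-08), and the average over the lines was 1.4 (SE 0.071, adjusted p 1.6e-12). As a description, the log2 differences between treated and untreated cells were 0.57 (SE 0.109) in EV and 2.11 (SE 0.133) in MUT.

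On the linear scale of CPM, the gains of DDR2 in the 3 lines lay close together. The difference of means between treated and untreated cells was 13.6 CPM (SE 3.58, n = 3 and 3) in EV, 12.2 CPM (SE 0.593) in WT and 13.6 CPM (SE 0.998) in MUT, on starting levels of 28.3, 6.47 and 4.08 CPM. The linear gains lay within their errors of each other, while the starting levels did not overlap. This is a description, since the same libraries chose the gene and the linear differences were added after the data were seen. Scaled by raw library totals, the gains were 18.2, 14 and 15.2 CPM. DDR1 did not share this pattern, with gains of 42.0 (SE 2.92), 53.5 (SE 3.37) and 69.6 CPM (SE 7.05) from nearly equal starting levels.

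DNMT3A methylates cytosines that stand before a guanine (CpG), so the CpG content of the start-site windows at hand is shown for DDR2, the member farthest below EV in both DNMT3A lines, and for TIMP3, which was also lower in both and has a CpG-rich window. Methylation was not measured in these data. RefSeq windows on GRCh38.p14 (250 bases before and 50 bases from a start site) were matched for 4 of the 10 genes, namely DDR1 (8 windows), DDR2 (3), MMP14 (1) and TIMP3 (1). Capitals mark each CpG, all 3 sequences are read 5′ to 3′ on the plus strand, and the start sites of the 2 DDR2 windows printed lie at 162630863 and 162631975.
DDR2 window 1, chr1:162630613-162630912: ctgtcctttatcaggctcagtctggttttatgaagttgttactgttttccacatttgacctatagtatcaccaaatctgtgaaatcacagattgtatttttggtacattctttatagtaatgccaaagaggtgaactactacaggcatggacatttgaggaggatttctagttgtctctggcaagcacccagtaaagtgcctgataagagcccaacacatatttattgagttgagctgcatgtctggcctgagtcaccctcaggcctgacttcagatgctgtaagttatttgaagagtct
DDR2 window 2, chr1:162631725-162632024: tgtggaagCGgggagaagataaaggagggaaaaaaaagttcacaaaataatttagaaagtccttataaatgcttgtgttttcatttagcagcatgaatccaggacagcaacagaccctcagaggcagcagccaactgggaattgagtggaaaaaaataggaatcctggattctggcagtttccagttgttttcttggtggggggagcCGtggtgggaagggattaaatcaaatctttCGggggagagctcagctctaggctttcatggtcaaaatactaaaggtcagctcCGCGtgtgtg
TIMP3 window, chr22:32801455-32801754: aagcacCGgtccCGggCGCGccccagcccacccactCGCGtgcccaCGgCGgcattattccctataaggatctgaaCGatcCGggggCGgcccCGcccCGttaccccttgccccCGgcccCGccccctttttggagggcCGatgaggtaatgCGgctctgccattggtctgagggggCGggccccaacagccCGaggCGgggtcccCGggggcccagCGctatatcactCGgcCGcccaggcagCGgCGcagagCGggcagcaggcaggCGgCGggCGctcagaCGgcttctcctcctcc
The first DDR2 window held 0 CpG, the second 5 and the third, which is not printed, 3. The first window ends upstream of base 162631373, where the DDR2 gene as counted here starts. The TIMP3 window held 31, more than 79.3% of the 35116 windows of all genes, whose median was 14. MMP14 held 10, and the DDR1 windows held between 3 and 34. The AP-1 motif TGANTCA, which reads the same on both strands, was found in the first DDR2 window from base -1 to base 6 relative to the start site and in 1 DDR1 window, and 7.71% of all windows hold it. The RUNX motif TGTGGT, searched on both strands and not overlapping the other, was found in the MMP14 window and is held by 13.1% of all windows. These are matches of letters and not shown to be bound.

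MMP13 (chromosome 11, 102942995 to 102955735, minus strand, hg38), the collagenase known as a DDR2 target, was rare in every group. Untreated EV libraries held 4.50, 3.68 and 2.83 CPM, untreated WT libraries 1.77, 1.59 and 1.70 CPM, and untreated MUT libraries 1.3, 1.13 and 1.09 CPM. The order of the untreated lines was thus the same as for DDR2, without overlap. Both genes were chosen by a contrast that favours low untreated MUT beside high untreated EV, so the shared order is a description. The shares of all genes without overlap are given with DDR2. After cytarabine the values were 3.72, 4.99 and 5.52 CPM in EV, 2.88, 1.89 and 3.38 CPM in WT, and 5.49, 4.12 and 5.14 CPM in MUT. The treated MUT libraries overlapped those of treated EV, whereas for DDR2 they stayed below them. In EV, treated and untreated libraries overlapped. The counts behind these values ran from 18 in untreated MUT to 129 in treated EV, which limits the precision of each value.

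Averaged over treatments, MMP13 was lower in MUT than in EV on the log2 scale by -0.79 (SE 0.166, adjusted p 0.0014) and lower in WT than in EV by -0.96 (SE 0.164, adjusted p 0.00023). MUT over WT was 0.17 (95% interval -0.20 to 0.53) and did not pass. The average treatment effect was a rise of 1.04 (SE 0.137, adjusted p 1.3e-06). In WT MMP13 rose by 0.69 (SE 0.242, adjusted p 0.023), and this call was lost without untreated WT replicate 2 or 3 or treated WT replicate 1 or 3, with the lowest value, 0.51 (adjusted p 0.13), without treated replicate 3. As a description, the log2 difference was 0.37 (SE 0.221) in EV and 2.06 (SE 0.246) in MUT. On the linear scale the gains were 1.07 CPM (SE 0.720) in EV, 1.03 CPM (SE 0.441) in WT and 3.74 CPM (SE 0.418) in MUT, so the like gains seen for DDR2 were not seen for MMP13.

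MMP3 (chromosome 11, 102835801 to 102843804, minus strand, hg38), the stromelysin, lies 99 kb from MMP13 in the MMP gene cluster of chromosome 11. The 6 genes of that cluster analysed here (MMP7, MMP10, MMP1, MMP3, MMP12 and MMP13) span 435 kb, all on the minus strand. Untreated libraries held 5.96, 5.43 and 5.90 CPM in EV, 6.87, 8.57 and 8.30 CPM in WT, and 5.07, 3.84 and 5.08 CPM in MUT. Treated libraries held 13.4, 15.2 and 17.5 CPM in EV, 16.0, 24.5 and 19.3 CPM in WT, and 7.56, 11.1 and 10.5 CPM in MUT. WT was highest and MUT lowest without treatment, an order that differs from that of MMP13. MMP3 rose with cytarabine on the log2 scale by 1.42 (SE 0.176, adjusted p 2.0e-06) in EV, 1.33 (SE 0.168, adjusted p 2.3e-06) in WT and 1.05 (SE 0.181, adjusted p 6.2e-05) in MUT. Averaged over treatments it was lower in MUT than in EV by -0.48 (SE 0.126, adjusted p 0.0078) and than in WT by -0.89 (SE 0.123, adjusted p 1.8e-05). It was higher in WT than in EV by 0.41 (SE 0.121, adjusted p 0.017), a call that was lost without treated WT replicate 2 (0.33, adjusted p 0.0584). The antisense gene WTAPP1, which overlaps MMP1 and MMP3, had 4 to 17 counts per library.

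The gelatinases moved in opposite directions. MMP2 (chromosome 16, 55389700 to 55506692, plus strand) held 130, 125 and 130 CPM in untreated EV, 78.9, 81 and 78 CPM in untreated WT, and 159, 143 and 148 CPM in untreated MUT. After cytarabine it held 151, 155 and 161 CPM, 99.4, 90.5 and 99.6 CPM, and 218, 173 and 191 CPM in the same lines. Every treated library lay above every untreated one of its line, but the rises were small, with log2 fold changes of 0.28 (SE 0.0745, adjusted p 0.0038) in EV, 0.28 (SE 0.0755, adjusted p 0.0040) in WT and 0.37 (SE 0.0740, adjusted p 0.00028) in MUT. Averaged over treatments, MMP2 was lower in WT than in EV by -0.69 (SE 0.0532, adjusted p 1.2e-08), and higher in MUT than in EV by 0.27 (SE 0.0525, adjusted p 0.00072) and than in WT by 0.96 (SE 0.0532, adjusted p 1.0e-10).

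MMP9 (chromosome 20, 46008908 to 46016562, plus strand), the second gelatinase, was the one member that fell with cytarabine. Untreated libraries held 18.1, 16.9 and 16.8 CPM in EV, 28, 24.2 and 27.8 CPM in WT, and 31.0, 20.6 and 30.4 CPM in MUT. Treated libraries held 7.58, 6.62 and 8.77 CPM in EV, 14.7, 12.8 and 15.6 CPM in WT, and 19.3, 13.3 and 15.7 CPM in MUT. No treated library reached an untreated one of its line. The log2 fold change was -1.16 (SE 0.161, adjusted p 7.2e-06) in EV, -0.89 (SE 0.149, adjusted p 5.9e-05) in WT and -0.77 (SE 0.148, adjusted p 0.00021) in MUT. Against EV, MMP9 was higher in MUT by 0.87 (SE 0.109, adjusted p 9.6e-06) and in WT by 0.76 (SE 0.110, adjusted p 3.6e-05), whereas MUT over WT was 0.10 (95% interval -0.11 to 0.32) and did not pass. SLC12A5-AS1, antisense to MMP9, had 15 to 72 counts per library, and the strand setting of the counting is not given in the sources used here.

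MMP14 (chromosome 14, 22836557 to 22849028, plus strand), the membrane collagenase and activator of proMMP2, doubled in each line. Untreated libraries held 78.2, 81.1 and 87.0 CPM in EV, 86.2, 87.5 and 87.8 CPM in WT, and 127, 93.1 and 140 CPM in MUT. Treated libraries held 159, 160 and 178 CPM in EV, 174, 157 and 170 CPM in WT, and 252, 248 and 261 CPM in MUT. The treated MUT libraries lay above all others. The rise was 1.01 (SE 0.103, adjusted p 1.6e-07) in EV, 0.94 (SE 0.102, adjusted p 3.7e-07) in WT and 1.08 (SE 0.101, adjusted p 4.1e-08) in MUT on the log2 scale. Over both treatments MMP14 was higher in MUT than in EV by 0.58 (SE 0.0717, adjusted p 7.9e-06) and than in WT by 0.53 (SE 0.0715, adjusted p 1.4e-05). WT over EV was 0.05 (95% interval -0.10 to 0.20) and did not pass.

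TIMP2 (chromosome 17, 78852977 to 78925388, minus strand), the inhibitor that pairs with MMP14, started alike in the 3 lines. Untreated libraries held 260, 271 and 275 CPM in EV, 257, 267 and 275 CPM in WT, and 296, 265 and 274 CPM in MUT. Treated libraries held 392, 392 and 423 CPM in EV, 376, 330 and 352 CPM in WT, and 516, 441 and 476 CPM in MUT, so that the treated lines no longer overlapped, with WT lowest and MUT highest. TIMP2 rose on the log2 scale by 0.58 (SE 0.0702, adjusted p 1.3e-06) in EV, 0.41 (SE 0.0701, adjusted p 8.2e-05) in WT and 0.78 (SE 0.0703, adjusted p 2.4e-08) in MUT. Averaged over treatments MUT exceeded WT by 0.25 (SE 0.0495, adjusted p 0.00064) and EV by 0.15 (SE 0.0495, adjusted p 0.029). The second of these calls was lost in a fit of the compared groups alone (adjusted p 0.0652) and when any of 7 single libraries was left out (untreated EV replicates 1 and 2, treated EV replicates 1 and 2, untreated MUT replicate 1, treated MUT replicates 1 and 3), where the log2 fold change was 0.12 to 0.15 and the adjusted p at most 0.0924. WT over EV was -0.10 (95% interval -0.20 to 0.00), and in a fit of those groups alone it passed (-0.11, adjusted p 0.0292). Genes that share the TIMP2 locus had few counts, the most for CEP295NL with 13 to 125 per library.

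TIMP3 (chromosome 22, 32801701 to 32863044, plus strand), the matrix-bound inhibitor, differed between all 3 lines. Untreated libraries held 38.0, 40.3 and 48.9 CPM in EV, 22.8, 24.8 and 21.7 CPM in WT, and 32.9, 30.7 and 31.6 CPM in MUT. Treated libraries held 51.1, 59.9 and 54.7 CPM in EV, 30.3, 26.7 and 30.4 CPM in WT, and 40.4, 36.4 and 34.9 CPM in MUT. Within each treatment EV was highest and WT lowest, without overlap. TIMP3 was lower in WT than in EV by -0.90 (SE 0.0673, adjusted p 9.4e-09), lower in MUT than in EV by -0.49 (SE 0.0662, adjusted p 2.0e-05), and higher in MUT than in WT by 0.41 (SE 0.0677, adjusted p 0.00013). With cytarabine it rose by 0.38 (SE 0.0926, adjusted p 0.0021) in EV and 0.34 (SE 0.0971, adjusted p 0.0072) in WT. In MUT the change was 0.23 (SE 0.0944, adjusted p 0.046), and this call was lost under most alternatives, among them DESeq2 (0.19, adjusted p 0.113), the authors' scaling factors (0.14, adjusted p 0.205) and the omission of treated MUT replicate 1 (0.17, adjusted p 0.191). SYN3, antisense to TIMP3, had 1 to 18 counts per library.

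Line differences averaged over both treatments were called for 8 of 9 members between MUT and EV (4 higher and 4 lower in MUT), where 27.4% of all tested genes were called, 13.5% higher and 13.9% lower. Between WT and EV 6 of 9 were called (2 higher and 4 lower in WT), against 24.7% of all genes (11.2% higher and 13.6% lower), and between MUT and WT 6 of 9 (4 higher and 2 lower in MUT), against 32.2% (16.8% higher and 15.4% lower). DDR2, MMP13 and TIMP3 were lower than in EV in both DNMT3A lines, and MMP9 was higher in both. MMP2 and MMP3 lay on opposite sides of EV in WT and MUT. MMP14 differed from EV in MUT alone among the calls, and the test of MUT against WT passed for it as given above. Because the EV libraries serve both comparisons, the values against EV are not independent of each other.

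**Figure D3:**
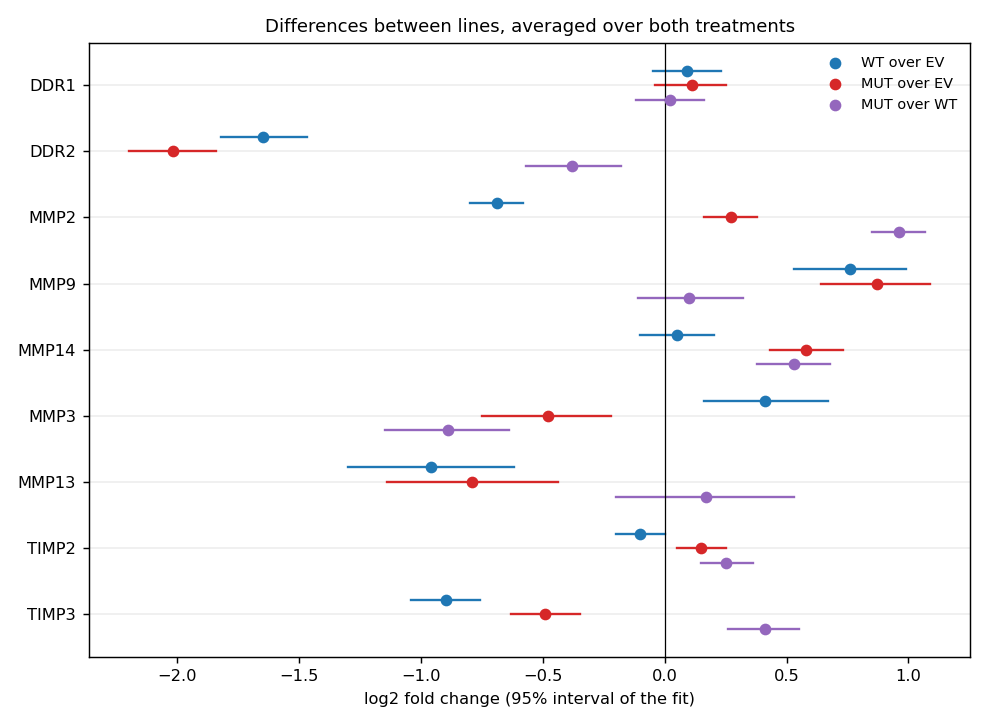
The horizontal axis gives the log2 fold change between lines, averaged over untreated and treated cells, with the 95% interval of the edgeR fit; colours mark WT over EV, MUT over EV and MUT over WT. DDR2 lies farthest from 0 in both DNMT3A lines, while the intervals of DDR1 include 0 in all 3 comparisons.

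Differences in response were tested for the 7 members other than DDR2 and MMP13 between WT and EV and between MUT and WT, and were left untested between MUT and EV, the contrast of the choice. For WT against EV 0 of the 7 members tested passed, where 0.285% of all genes did, with log2 differences from -0.18 to 0.27 and an unadjusted p under 0.05 in 0 of 7, where 1815 of the 18226 genes had one. For MUT against WT 0 of 7 passed, where 1.00% of all genes did, with differences from -0.28 to 0.37. Here the unadjusted p was under 0.05 for 1 of 7, TIMP2, and for 2810 of the 18226 genes. The TIMP2 difference, MUT minus WT, was 0.37 (SE 0.099, unadjusted p 0.00136, adjusted p 0.075) in edgeR. It passed in DESeq2 (0.32, adjusted p 0.0184) and in edgeR without untreated MUT replicate 1 (0.42, adjusted p 0.0255). The contrast of MUT minus EV chose DDR2 and MMP13, and 0.214% of all genes were called in it. As a description, it was 1.55 (SE 0.173) for DDR2 and 1.69 (SE 0.332) for MMP13. The next members, also untested, were DDR1 at 0.44 (SE 0.135, 95% interval 0.16 to 0.73), MMP9 at 0.40 (SE 0.218) and MMP3 at -0.36 (SE 0.253), with the other 4 between -0.15 and 0.19. The 2 chosen genes differed in where WT stood. For DDR2 the WT minus EV difference was 0.95 (SE 0.165) and the MUT minus WT difference 0.59 (SE 0.184), so WT lay between the other lines. For MMP13 they were 0.32 (SE 0.327, 95% interval -0.36 to 1.01) and 1.37 (SE 0.347), so WT lay near EV. These differences share libraries with each other.

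Ratios within a library, which do not depend on scaling, show how the balance of the members shifted. MMP14 per TIMP2 went from 0.306 ± 0.00954 to 0.412 ± 0.00877 (SD, n = 3) in EV and from 0.328 ± 0.00768 to 0.475 ± 0.0111 in WT. In MUT it went from 0.430 ± 0.0787 to 0.533 ± 0.0394, where the untreated libraries (0.351 to 0.508) overlapped the treated ones (0.488 to 0.563). MMP2 per TIMP2 went the other way, from 0.478 ± 0.0193 to 0.388 ± 0.00797 in EV, 0.298 ± 0.0124 to 0.274 ± 0.00948 in WT and 0.538 ± 0.00108 to 0.405 ± 0.0155 in MUT, without overlap within a line. MMP9 per MMP2 was lower after cytarabine in each line, at 0.135 ± 0.00501 against 0.0490 ± 0.00597 in EV, 0.337 ± 0.0329 against 0.148 ± 0.00799 in WT and 0.182 ± 0.0330 against 0.0826 ± 0.00591 in MUT. DDR2 per DDR1 was 0.566 ± 0.126 in untreated EV and 0.451 ± 0.0491 in treated EV, with overlapping libraries. In MUT it was 0.0880 ± 0.0112 and 0.153 ± 0.0281. The ratios of DDR2 in all WT and MUT libraries stayed at or under 0.184, below the lowest EV library at 0.396.

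**Figure D4:**
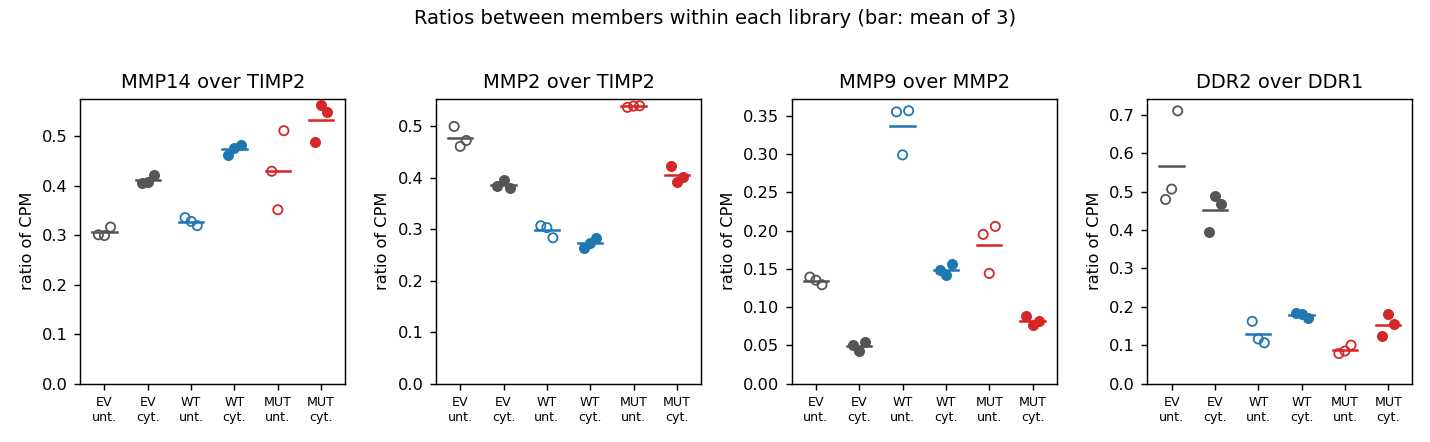
Each panel plots, on a linear axis from 0, the ratio of CPM of 2 members in every library, with open circles for untreated and filled circles for treated libraries and a bar for the mean of 3. MMP14 over TIMP2 lies higher and MMP9 over MMP2 lower after cytarabine, and DDR2 over DDR1 separates EV from the other lines.

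Of the counts of the 6 member MMPs, MMP2 and MMP14 together held the most in every group. MMP2 took 54.1% ± 0.688 and MMP14 34.6% ± 1.46 (SD, n = 3) in untreated EV, and 44.6% ± 1.12 and 47.4% ± 0.663 in treated EV. In treated WT their shares were 32.0% ± 0.458 and 55.6% ± 0.983, and in treated MUT 40.5% ± 2.6 and 53.1% ± 2.62. MMP9 took 13.1% ± 1.07 in untreated WT and 4.76% ± 0.309 in treated WT. MMP13 never took more than 1.55% ± 0.368, which it held in untreated EV. These are shares of counts, not of molecules per length or of protein.

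Across the 6 group means of log2 CPM, each profile centred on its own mean, the profiles most like that of DDR2 among 13681 genes were those of LYPD5 (root mean square difference 0.291 log2), GALNT15 (0.304) and TMEM179 (0.311). LYPD5 stood at 5.38 ± 0.707, 1.88 ± 0.173 and 1.46 ± 0.489 CPM (SD, n = 3) in untreated EV, WT and MUT, and at 13.8 ± 0.600, 5.94 ± 0.666 and 5.35 ± 0.708 CPM after cytarabine. The profiles most like that of MMP13 were those of TEX37 (0.153), RPS6KA6 (0.166) and AFF2 (0.251). RPS6KA6 stood at 7.02 ± 0.953, 3.42 ± 0.955 and 2.48 ± 0.0619 CPM untreated and at 11.6 ± 1.06, 6.79 ± 0.987 and 9.36 ± 0.381 CPM treated in the same order of lines. DDR2 and MMP13 themselves were 0.581 apart, and neither was among the other's 3 nearest genes.

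The neighbouring pathway was read from 8 lists of 114 genes, of which 99 were tested. Averaged over the lines, 47 of the 99 rose, 32 fell and 20 did not pass, where 37.3% of all tested genes rose and 31.7% fell. Fibrillar and network collagens, among them ligands of DDR1 and DDR2, rose in 10 of 12 and fell in 1 of 12, with a median log2 fold change of 0.51 where that of all tested genes was 0.037. Within the lines, 9 of 12 rose in EV, 9 in MUT and 6 in WT, where 26.1%, 30.4% and 26.3% of all tested genes rose. COL11A1, a minor fibrillar collagen, rose by 1.66 (SE 0.0547, adjusted p 6.0e-15), from 17.3 ± 1.35 to 59.9 ± 2.23 CPM in EV. COL5A3 was the one that fell, by 1.32 on the log2 scale (SE 0.0911, adjusted p 1.4e-10). The other collagen receptors rose in 7 of 10 and fell in 1 of 10. Within the lines, 7 of these 10 receptors rose in EV, 6 in MUT and 5 in WT, beside the same shares. Among them, the integrin subunits ITGA1 (1.22, SE 0.108, adjusted p 5.2e-09) and ITGA2 (0.91, SE 0.0622, adjusted p 1.3e-10) and the collagen uptake receptor MRC2 (0.83 in EV, SE 0.0735, adjusted p 3.0e-08) rose. MRC2 also rose in WT (0.54, SE 0.0731, adjusted p 5.3e-06) and MUT (0.96, SE 0.0737, adjusted p 3.2e-09).

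Other proteases and inhibitors were mixed, on an average over the lines in which 37.3% of all tested genes rose and 31.7% fell. Of the 9 further MMPs tested, 5 rose and 3 fell, with MMP19 (1.17, SE 0.0682, adjusted p 1.2e-11) and the membrane-type MMP15 (1.09, SE 0.0598, adjusted p 4.9e-12) the largest changes among those whose mean log2 CPM was 1 or more. Below that level, and named after their values were seen, MMP12 (3.88, SE 0.571, adjusted p 9.5e-06) and MMP17 (1.59, SE 0.182, adjusted p 2.1e-07) rose by more, and MMP10 fell by 1.52 on the log2 scale (SE 0.225, adjusted p 6.2e-06). ADAM and ADAMTS proteases rose in 11 of 19 and fell in 4. ADAMTS2, which trims fibrillar procollagen, went from 8.92 ± 0.644 to 21.5 ± 1.79 CPM in EV (log2 fold change 1.27, SE 0.128, adjusted p 1.6e-07). ADAMTS2 also rose in WT (0.8, SE 0.141, adjusted p 0.00011) and MUT (1.27, SE 0.126, adjusted p 8.1e-08). RECK, a membrane-anchored MMP inhibitor, rose by 0.74 (SE 0.0719, adjusted p 2.2e-08), while TIMP1, the inhibitor that binds proMMP9, fell by 0.29 on the log2 scale (SE 0.0895, adjusted p 0.0082). Of 12 genes of plasminogen and MMP activation 4 rose, among them the protease PCSK5 (1.09, SE 0.0695, adjusted p 4.2e-11) and the plasminogen activator PLAT (0.82, SE 0.0457, adjusted p 6.7e-12), and 3 fell. The falls among the further MMPs, and both shares of the activation list, were near or under those of all genes.

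**Figure D5:**
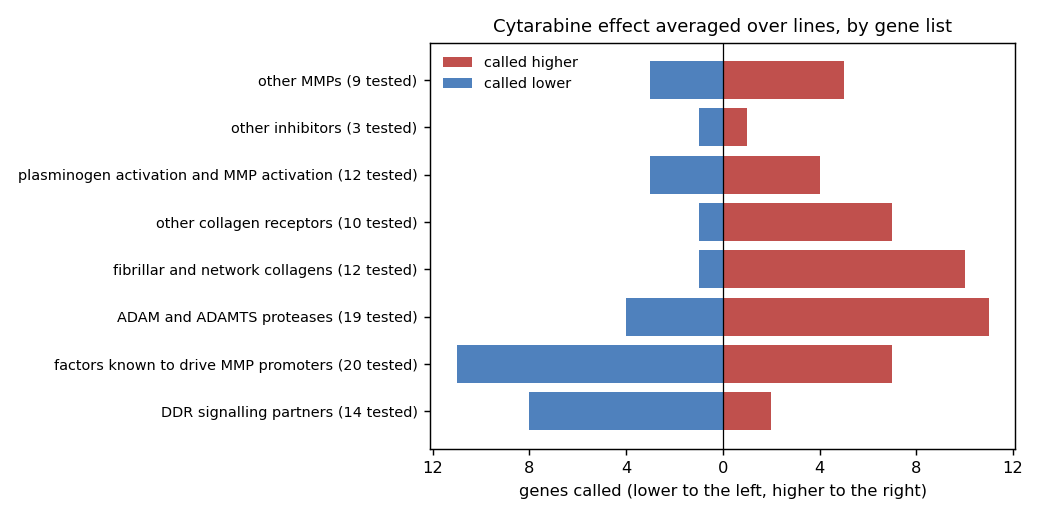
Bars count the tested genes of each list called higher (right) or lower (left) with cytarabine, averaged over the 3 lines; the axis is in genes and starts at 0 in the middle. Collagens and collagen receptors lean to the right, and transcription factors of MMP promoters and DDR signalling partners lean to the left.

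Transcription factors known to act at MMP promoters fell in 11 of 20 and rose in 7 of 20, where 31.7% of all tested genes fell and 37.3% rose, so the share that rose was near that of all genes. NFKB1 fell by 0.95 (SE 0.0406, adjusted p 1.5e-13), from 106 ± 4.04 to 51.2 ± 4.04 CPM in EV. The founding ETS factor ETS1 fell in each line, with log2 fold changes of -0.96 in EV (SE 0.0897, adjusted p 5.8e-08), -0.93 in WT (SE 0.0895, adjusted p 7.6e-08) and -0.79 in MUT (SE 0.0893, adjusted p 4e-07). EPAS1, the hypoxia factor HIF-2 alpha, rose by 1.51 (SE 0.0623, adjusted p 9.9e-14). DDR signalling partners fell in 8 of 14 and rose in 2 of 14, against the same shares of all genes, with YBX1 down by 0.73 (SE 0.0582, adjusted p 1.1e-09) and NOTCH1 up by 0.55 (SE 0.0619, adjusted p 1.7e-07), each on the log2 scale.

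Between the lines, averaged over treatments, 18 of the 99 pathway genes were higher and 22 lower in MUT than in EV, beside 13.5% and 13.9% of all tested genes. Between WT and EV 17 were higher and 17 lower in WT, beside 11.2% and 13.6%, and between MUT and WT 24 were higher and 26 lower in MUT, beside 16.8% and 15.4%. Several of the 99 were, like MMP2, lower in WT than in EV. COL1A1, the main chain of type I collagen, stood at 177 ± 8.51, 63.4 ± 4.42 and 166 ± 23.9 CPM in untreated EV, WT and MUT, with a log2 fold change of WT over EV of -1.65 (SE 0.0736, adjusted p 3.9e-12). The other chain, COL1A2, was low and went the other way, with WT over EV at 1.98 (edgeR, SE 0.211, adjusted p 9.8e-07). ADAMTS2 (-1.19, SE 0.0955, adjusted p 2.4e-08), STAT5A (-1.01, SE 0.0696, adjusted p 2.9e-09), A2M (-1.02, SE 0.118, adjusted p 2.6e-06) and RUNX3 (-1.71, SE 0.211, adjusted p 5.8e-06), a factor of the RUNX family at 2.04 ± 0.795 CPM in untreated EV, were also lower in WT than in EV. Higher in WT than in EV were PLAU, a plasminogen activator (0.71, SE 0.0759, adjusted p 1.0e-06), ITGA2 (0.75, SE 0.0751, adjusted p 4.5e-07) and COL3A1 (1.35, SE 0.0972, adjusted p 5.0e-09). ZEB1 (-0.40, SE 0.0841, adjusted p 0.0014) and the protease CTSL (-0.54, SE 0.0922, adjusted p 0.00023) were lower in MUT than in EV, and ADAMTS1 was higher (0.95, SE 0.0993, adjusted p 1.2e-06).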

How the data were processed

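Total RNA of 18 U2OS cultures was sequenced, 3 in each of 6 groups, and the sample titles gave the groups and replicate numbers. The deposited main table holds estimated counts by gene symbol, not normalized, of which 70.9% of values were whole numbers. Per the submitters' processing notes, CASAVA, STAR 2.6.1d and hg38 were used; the counting tool, its use of strand and its treatment of reads with several matches are not given in the sources used here. A second table that the authors deposited holds a normalized signal, equal to 1 plus a library factor times the estimated count (largest relative deviation 7.36e-06), and served only for those factors. No table row had fewer than 10 counts.

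Estimated counts were rounded and fitted with edgeR 4.0.16 in R 4.3.3 (filterByExpr, TMM, quasi-likelihood F test) in 1 model of all 18 libraries with a coefficient for each group. Benjamini-Hochberg adjustment ran over all 18226 tested genes, with a threshold of 0.05. The common biological coefficient of variation was 0.104. TMM factors were 0.862 to 0.9615 in untreated and 1.042 to 1.111 in treated libraries, so CPM values of the 2 treatments move apart under raw totals. Log2 CPM used a prior count of 2. SE is the absolute log2 fold change over the square root of F. P-values measure the spread between cultures of 1 derived line per construct. The fit was checked on simulated data with the same spread in every group. That check does not cover the unequal spread of the groups here.

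The members and lists were chosen with earlier results of these data known. Named genes were DNMT3A, the members, the 2 genes of each list with the largest called change in each contrast (mean log2 CPM of at least 1), not all of which are printed, and the 3 genes most like DDR2 and MMP13. The cell type markers were named as well. Exonic lengths came from GENCODE, and coordinates are those of the deposited table. Alternatives were other scalings, filters, DESeq2 1.42.0, a replicate block, the compared groups alone and the omission of each library.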

Additional observations from a re-analysis of the deposited data

How the results depend on the processing

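Of 2279 values of single members recomputed under alternative settings, 2241 kept their side of the threshold or, if untested, moved by less than 1 SD. A further 31 lost and 4 gained a call, and 3 untested values moved further. No value called in the main fit changed direction. Direction was not compared for values called in neither fit, and for untested values only where the main value exceeded 2 times its SE. The calls that changed are named beside their results. The number of members called stayed at 7 in EV, 8 to 9 in WT and 6 to 7 in MUT for the cytarabine effect. For the difference in response between MUT and WT it was 0, but 1 (TIMP2) in DESeq2, and 0 to 1 when single libraries were left out. The described difference in response between MUT and EV ranged from 1.45 to 1.62 for DDR2 and from 1.52 to 1.84 for MMP13 when single libraries were left out. Over all genes that contrast is unstable, with 39 genes called and between 1 and 666 under the alternatives. The untested MUT minus EV difference of MMP14 went from 0.06 to -0.13 without untreated MUT replicate 2. Of 60 group levels, 36 moved by no more than 1 SD when CPM was taken per raw library total. The profiles nearest to DDR2 were the same 3 genes with a prior count of 0.5, and 2 of 3 for MMP13. Other scalings moved the median of all genes by at most 0.085 on the log2 scale.

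Replicate numbers did not pair the libraries. Over 45 pairs with the same number the correlation of deviations ran from -0.176 to 0.352, and 8 of 18 libraries correlated best with their own number. With a replicate block the members called were 7 in EV, 9 in WT and 6 in MUT for cytarabine, 9 for the average, and 8, 6 and 6 for MUT against EV, WT against EV and MUT against WT. The blocked difference in response was 1.54 for DDR2 and 1.69 for MMP13, and the cytarabine effect on TIMP3 in MUT lost its call (adjusted p 0.0582). Low counts limit MMP1, which was not tested, and MMP13. Promoter methylation, protein and protease activity were not measured.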
